A study of Homo sapiens with 5 samples.

Results

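In 5q-deleted myelodysplastic syndrome (MDS) a stretch of chromosome 5 is lost, and 10 genes of its long arm were followed across 5 sequencing libraries of HL60 cells. Members were matched by symbol to Ensembl gene IDs, and all 10 were found among the 51055 genes counted. They are PPP2CA, TIFAB, SMAD5, KDM3B, HSPA9, CTNNA1, DIAPH1, NR3C1, CSNK1A1 and SPARC, in order from the centromere. The series title links knockdown of miR-378-3p to MDS, and the gene of that microRNA, MIR378A, lies among the members, between CSNK1A1 and SPARC.

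HL60 is an established human promyelocytic leukaemia line. The groups were untransduced cells (UNT, n = 1), cells transduced with the control lentivector SCR (n = 2) and cells transduced with the lentivector ZIP, which encodes an antisense hairpin against miR-378a-3p (n = 2). Both vectors carry a green fluorescent protein and were spun onto the cells with polybrene (8 µg/mL, multiplicity of infection 20), and puromycin (2 µg/mL) was applied from day 3 to day 8. The labels call SCR a scramble vector in one place and an empty vector in another. No label says that the libraries of a group came from separate cultures. P-values here therefore measure the spread between libraries, which may be technical. UNT is 1 library, so p-values against it borrow the spread of SCR and ZIP and measure none within UNT. As a model of 5q loss HL60 has its own limit, stated here as background: the line has been described as carrying a deleted chromosome 5q and a silenced CTNNA1. DNA was not measured in these libraries.

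Loss of one copy of 5q is the most frequent chromosome lesion of MDS, and it lowers the dose of many genes at once rather than removing a single tumour suppressor. Several members have been tied to features of the disease: TIFAB restrains innate immune signalling through TRAF6, the kinase CSNK1A1 marks beta-catenin for destruction and is the target through which lenalidomide acts in 5q-deleted cells, and CTNNA1 anchors cadherins to actin. DIAPH1, HSPA9, KDM3B, PPP2CA, NR3C1 and SMAD5 encode an actin nucleator, a mitochondrial chaperone, a histone demethylase, a phosphatase, the glucocorticoid receptor and a transducer of bone morphogenetic protein (BMP) signals. SPARC encodes a secreted collagen-binding protein.

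Because the ZIP vector targets miR-378a-3p, its sequence and its matches in the members are shown first. The mature microRNA comes from the 3′ arm of MIR378A (RefSeq, GRCh38.p14, plus strand, chr5:149732867-149732888), and capitals mark the seed, bases 2 to 8.
hsa-miR-378a-3p: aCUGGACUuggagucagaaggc
The seed pairs with AGTCCAG in a messenger RNA. In 1 GENCODE 29 transcript per gene, the 3′ untranslated regions of 4 of the 10 members held this match: CTNNA1 with 2, and SMAD5, NR3C1 and SPARC with 1 each. Among 19127 protein-coding genes 10.4% held it, but the members' regions are longer (945 to 5252 bases, against a median of 871 over all genes), so the shares are not compared. The first 7 bases in capitals below are the match, and a capital A after it marks the CTNNA1 site that is followed by A.
CTNNA1 site 1 (chr5:138934206-138934228, plus strand): agactgaaccAGTCCAGgtggtg
CTNNA1 site 2 (chr5:138934451-138934473, plus strand): gagagggtgcAGTCCAGAcagct
NR3C1 site (chr5:143281025-143281047, minus strand): tagagcacctAGTCCAGtgacct
SMAD5 site (chr5:136180128-136180150, plus strand): aattttattcAGTCCAGctattc
SPARC site (chr5:151662002-151662024, minus strand): tggagcttagAGTCCAGgaggaa
A match is a description of these letters, not a measured binding site. The knockdown itself could not be checked, since MIR378A had 0 counts in 4 libraries and 2 counts in ZIP 2, and a count at that locus need not come from the mature microRNA.

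Library totals ran from 24406580 to 30925067 counts. Levels are given as CPM, counts scaled to the TMM-adjusted library size, and a floor of 3 counts corresponds to 0.0979 to 0.125 CPM. Of the 10 members 9 passed the filter on low counts, and SPARC did not. Markers of HL60 promyelocytes (MPO, ELANE, PRTN3, AZU1 and CTSG) summed to 24316 CPM in UNT. The sums were 11571 and 11573 in SCR and 22567 and 21914 in ZIP, so these defining markers were present in every library and lowest in SCR. Markers of monocytes and macrophages (CD14, CSF1R, FCGR1A, ITGAM, VCAN and CD163) summed to 14.3 CPM in UNT, with 176 and 180 for the SCR libraries and 25.5 and 23.7 for the ZIP libraries. Markers of stroma, erythroid cells, megakaryocytes, T cells and B cells summed to at most 5.33 CPM each, with HBB, HBA1 and MS4A1 at 0 in all 5 libraries.

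All 9 tested members were highest in the SCR libraries, and for 8 of the 9 the order was SCR above ZIP above UNT in every library. SMAD5 was the exception, with UNT between SCR and ZIP. Among all 15832 genes tested over the 5 libraries, both SCR libraries lay above the other 3 in 28.9%, and the full order SCR, ZIP, UNT held in 16%. Between ZIP and SCR 8 members fell and 0 rose, where 65.4% of all genes were called, 33.2% lower and 32.2% higher (edgeR quasi-likelihood test, Benjamini-Hochberg adjusted p under 0.05). Between SCR and UNT 8 members rose and 0 fell, where 64.9% of all genes were called, 32.7% higher and 32.2% lower. Between ZIP and UNT 7 members rose and 1 fell, against 58.2% of all genes called, 28.5% higher and 29.7% lower. Calls of at least 2-fold were 2 members in ZIP against SCR (14.1% of all genes), 3 in SCR against UNT (20.4%) and 2 in ZIP against UNT (13.9%). The libraries of the groups compared did not overlap for any of the 9 members in any comparison, which was also so for 81% of all genes in ZIP against SCR, 92.3% in SCR against UNT and 90.5% in ZIP against UNT. The median log2 fold change of the 9 members was -0.36 in ZIP over SCR, 0.88 in SCR over UNT and 0.52 in ZIP over UNT, and the medians of all genes tested were -0.00184, 0.0160 and 0.00155. These comparisons share libraries in pairs and are not independent of each other. The member genes were chosen with earlier results of these data known, so their direction as a group is a description.

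**Figure D1:**
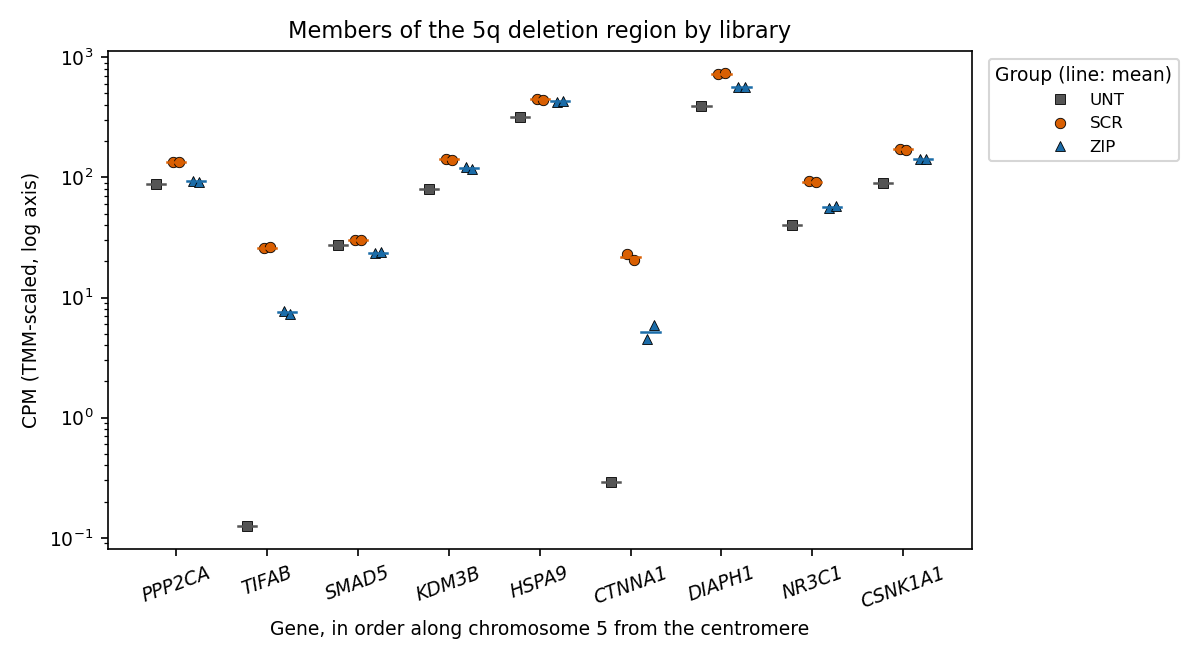
Level of each tested member in every library (CPM on a log axis, squares for UNT, circles for SCR, triangles for ZIP, short lines for group means), in order along the chromosome. SCR is the highest group for all 9 genes, and TIFAB and CTNNA1 stand near the bottom of the axis in UNT, at 0.125 and 0.292 CPM.

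TIFAB and CTNNA1 were nearly silent in the untransduced library and were the members that differed most between groups. TIFAB (ENSG00000255833, minus strand, chr5:135444218-135452399 in GRCh38), an inhibitor of the TIFA and TRAF6 signalling axis, had 3 counts in UNT, 652 and 677 in SCR, and 236 and 178 in ZIP. As CPM this was 0.125 in UNT, 25.7 and 26.3 in SCR, and 7.71 and 7.36 in ZIP. The 3 groups did not overlap, and in the comparisons with UNT the gene passed the filter through the vector groups. The SCR level was 208 times that of UNT, with an exact (Clopper-Pearson) 95% interval of 71.0 to 1009 that covers counting error only, and the ZIP level was 60.3 times that of UNT (20.5 to 294). ZIP lay 3.44-fold below SCR, a log2 fold change of -1.78 ± 0.08 (SE, adjusted p = 4.3e-14, edgeR).

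CTNNA1 (ENSG00000044115, plus strand, chr5:138610967-138935034) encodes alpha-catenin, which links cadherin and beta-catenin complexes to actin. It had 7 counts in UNT, 584 and 529 in SCR, and 139 and 142 in ZIP, or 0.292 CPM, 23.01 and 20.6 CPM, and 4.54 and 5.87 CPM. The SCR libraries were the highest and the ZIP libraries were in the middle, with no overlap. SCR stood 74.6 times above UNT (95% interval 36.1 to 186) and ZIP 17.6 times above UNT (8.41 to 44.1). These intervals cover counting error only, and in both comparisons with UNT the gene passed the filter through the vector groups. ZIP was 4.24-fold below SCR, a log2 fold change of -2.08 ± 0.10 (adjusted p = 4.1e-13, edgeR). CTNNA1 carried 2 of the 5 seed matches shown above, and their part in its level was not tested. Across all genes tested, TIFAB ranked 66th and CTNNA1 209th by size of the log2 change in SCR over UNT. In ZIP over SCR they ranked 877th and 651st. The ranks against UNT rest on a filter that both genes met through the vector groups, where they are high.

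The summed monocyte markers had the same order of groups as these 2 genes, with 14.3 CPM in UNT, 176 and 180 CPM in SCR, 25.5 and 23.7 CPM in ZIP, all 6 markers called higher in SCR over UNT and 5 of 6 called lower in ZIP over SCR. The promyelocyte markers moved the other way, with all 5 called lower in SCR over UNT and higher in ZIP over SCR. The shares of all genes called in each comparison are given above. The monocyte markers CD14 and CSF1R lie between PPP2CA and SPARC on chromosome 5, so that set is not separate from the region. The part of both marker sets in the levels of TIFAB, CTNNA1 and the other members was not tested. In bulk libraries, more cells that express a gene and more RNA per cell cannot be told apart. By profile over the 5 libraries, the genes most like TIFAB were PHACTR3 (root mean square distance 0.23 on the centred log2 CPM scale), CAMK2D (0.26) and KCNJ5-AS1 (0.30), out of 11013 candidates that GENCODE 29 types as protein-coding. PHACTR3 stood at 0.167 CPM in UNT, 24.0 and 24.6 in SCR, and 6.595 and 5.91 in ZIP. Those most like CTNNA1 were SMPDL3A (0.16), the interferon-induced XAF1 (0.18) and CYP2S1 (0.20). In UNT, CAMK2D and KCNJ5-AS1 had 0 CPM, and SMPDL3A and CYP2S1 had 0.0417 and 0.0834 CPM, under the floor. Their UNT points, and so these distances, depend on the offset of 0.5 counts added before the log.

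The 2 genes differ in their start regions. The windows printed run from 250 bases before to 50 bases after a RefSeq start (GRCh38.p14), shown because both genes were near 0 in UNT and rose together; capitals mark CpG dinucleotides.
TIFAB (chr5:135452302-135452601, minus strand): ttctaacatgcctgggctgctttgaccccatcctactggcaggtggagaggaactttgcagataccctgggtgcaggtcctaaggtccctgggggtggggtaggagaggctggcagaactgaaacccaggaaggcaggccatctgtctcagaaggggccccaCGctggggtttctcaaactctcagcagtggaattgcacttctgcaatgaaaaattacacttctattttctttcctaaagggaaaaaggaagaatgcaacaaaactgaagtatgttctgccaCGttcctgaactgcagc
CTNNA1, first of 4 starts (chr5:138753175-138753474, plus strand): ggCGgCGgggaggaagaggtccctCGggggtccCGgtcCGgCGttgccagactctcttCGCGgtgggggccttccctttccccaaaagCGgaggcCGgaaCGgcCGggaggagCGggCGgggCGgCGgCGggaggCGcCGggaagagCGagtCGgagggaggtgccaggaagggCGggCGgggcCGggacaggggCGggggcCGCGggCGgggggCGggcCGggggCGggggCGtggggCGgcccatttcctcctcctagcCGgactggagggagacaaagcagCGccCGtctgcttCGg
The TIFAB window holds 2 CpG and 51% G or C, and 10.97% of 35116 such windows hold fewer CpG. The CTNNA1 window holds 37 CpG and 77.7% G or C, and 88.7% of windows hold fewer. The GC box GGGCGG, searched on both strands, occurs 9 times in the CTNNA1 window and 0 times in that of TIFAB, and 45.0% of all windows hold it. Neither of these 2 windows holds the AP-1 motif TGAGTCA (4.95% of windows) or the core of the interferon-stimulated response element (3.57%). The second CTNNA1 start holds 44 CpG, while the later ones, further downstream, hold 3 and 8. The third CTNNA1 window holds 1 match to that interferon core and the last holds 1 cyclic AMP response element, TGACGTCA (1.85% of windows). Among first starts, those of PPP2CA, SMAD5, KDM3B, HSPA9, DIAPH1 and CSNK1A1 hold 27 to 39 CpG, that of SPARC 11 and that of NR3C1 0, whose later starts hold 3 to 51. The counts do not show which start was used.

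NR3C1 (ENSG00000113580, minus strand, chr5:143277931-143435512), the glucocorticoid receptor, is a transcription factor that steroid hormones activate. It stood at 39.8 CPM in UNT, 93.4 and 91.2 in SCR, and 55.8 and 58.2 in ZIP. NR3C1 was the only other tested member with group means at least 2-fold apart. Its log2 fold change was 1.21 ± 0.05 in SCR over UNT (adjusted p = 1.1e-15), -0.70 ± 0.04 in ZIP over SCR (adjusted p = 6.9e-13) and 0.51 ± 0.05 in ZIP over UNT (adjusted p = 1.9e-08, edgeR). RSPH3, DNAAF4 and ETV1 had the most similar profiles, at distances of 0.017, 0.018 and 0.019.

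SMAD5 (ENSG00000113658, plus strand, chr5:136132845-136188747), which carries BMP signals from receptors to the nucleus, had the smallest change of the tested members in SCR over UNT. It stood at 27.4 CPM in UNT, 30.3 and 29.9 in SCR, and 23.3 and 23.8 in ZIP. The ZIP libraries lay below SCR, with a log2 fold change of -0.35 ± 0.06 (adjusted p = 1.5e-05). SCR over UNT was 0.13 ± 0.07 and did not pass (adjusted p = 0.1). SMAD5 was the single member that fell in ZIP over UNT, by 0.22 ± 0.07 on the log2 scale (adjusted p = 0.013, edgeR), and this call was lost with library totals (-0.17, adjusted p = 0.052), with the DESeq2 Wald test (-0.21, adjusted p = 0.18) and without ZIP 1 (-0.21, adjusted p = 0.05).

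CSNK1A1 (ENSG00000113712, minus strand, chr5:149492197-149551552), the casein kinase 1 alpha that primes beta-catenin for degradation, stood at 89.6 CPM in UNT, 172 and 170 in SCR, and 143 and 142 in ZIP. Among the 7 members outside TIFAB and CTNNA1 it had the largest ZIP over UNT change, at 0.67 ± 0.04 (adjusted p = 9.6e-13), while ZIP over SCR was -0.26 ± 0.03 (adjusted p = 5.8e-08, edgeR). An annotated transcript on the same strand, ENSG00000230551, overlaps it and took 449 to 570 counts per library, so a part of its reads may be assigned elsewhere. PPP2CA (ENSG00000113575, minus strand, chr5:134194334-134226142), the catalytic alpha subunit of protein phosphatase 2A (PP2A), stood at 88.5 CPM in UNT, 134 and 135 in SCR, and 94.0 and 92.2 in ZIP. The ZIP level of PPP2CA was close to UNT: the difference was 0.07 ± 0.04 on the log2 scale and did not pass (adjusted p = 0.11), although with library totals it did (0.12, adjusted p = 0.0088). ZIP over SCR was -0.53 ± 0.03 (adjusted p = 2.2e-12, edgeR).

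DIAPH1 (ENSG00000131504, minus strand, chr5:141515016-141619055), a formin that nucleates and extends straight actin filaments, was the most abundant member. It stood at 396 CPM in UNT, 727 and 734 in SCR, and 569 in both ZIP libraries. The log2 fold change of DIAPH1 was 0.88 ± 0.03 in SCR over UNT (adjusted p = 8.1e-18) and -0.36 ± 0.02 in ZIP over SCR (adjusted p = 1.2e-11, edgeR). KDM3B (ENSG00000120733, plus strand, chr5:138352596-138437028), a demethylase of histone H3 lysine 9, stood at 79.9 CPM in UNT, 143 and 139 in SCR, and 121 and 118 in ZIP. SCR over UNT was 0.82 ± 0.04 (adjusted p = 2.7e-14) and ZIP over SCR -0.23 ± 0.03 (adjusted p = 5.9e-07, edgeR).

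HSPA9 (ENSG00000113013, minus strand, chr5:138553756-138575724), the mitochondrial chaperone mortalin, was the tested member that did not pass in ZIP over SCR. It stood at 317 CPM in UNT, 449 and 445 in SCR, and 426 and 434 in ZIP. The ZIP libraries lay below both SCR libraries, but the log2 fold change was only -0.06 ± 0.02 (adjusted p = 0.054). This call sits at the threshold: it passed with library totals (-0.11, adjusted p = 0.00039). Both vector groups were above UNT, SCR by 0.49 ± 0.03 (adjusted p = 2.2e-12) and ZIP by 0.44 ± 0.03 (adjusted p = 3.3e-11, edgeR). Its processed pseudogene HSPA9P1 took 2 to 4 counts per library.

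SPARC (ENSG00000113140, minus strand, chr5:151661096-151687165) had 0 counts in UNT, 4 and 2 in SCR, and 0 and 3 in ZIP, at or near the floor throughout. The ratio of ZIP to SCR was 0.47, with a 95% interval of 0.0754 to 2.18 from 3 and 6 counts, so no difference was detectable at this depth. Defining stromal genes were as low, with COL1A1, COL1A2, DCN, LUM and PDGFRB together at 0.207 to 0.849 CPM.

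**Figure D2:**
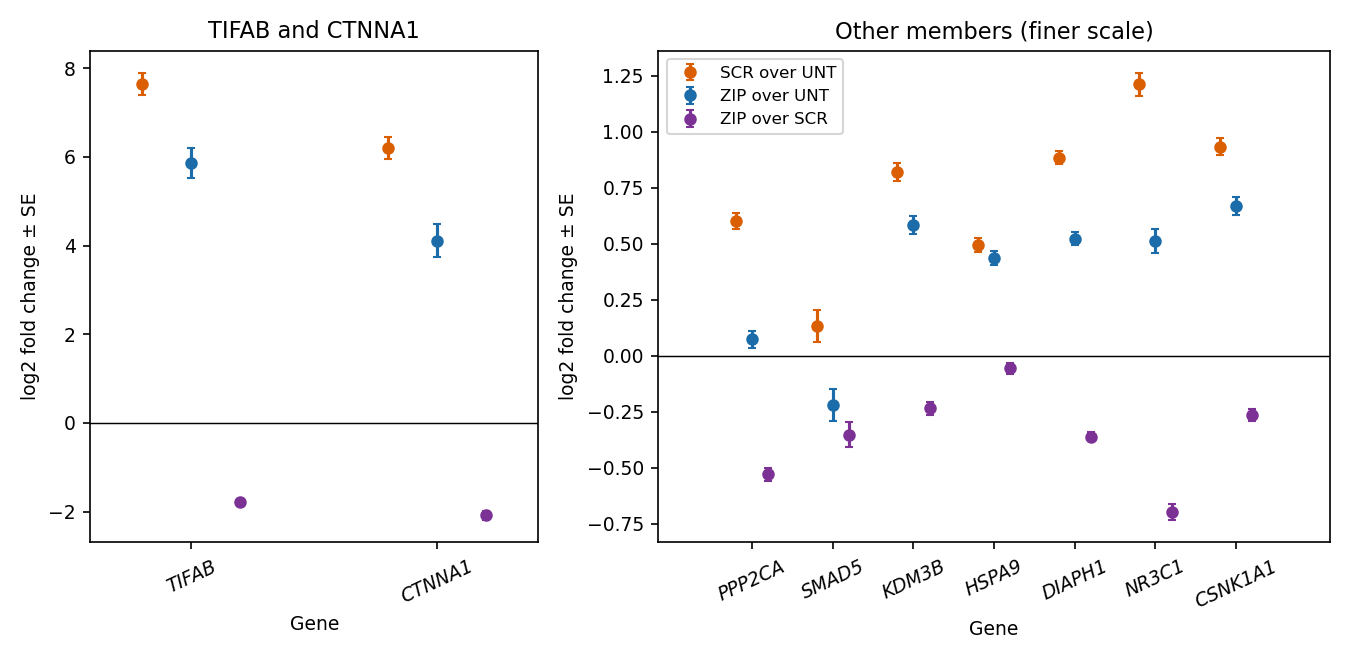
Log2 fold change with standard error for each tested member in SCR over UNT, ZIP over UNT and ZIP over SCR, with TIFAB and CTNNA1 on a wider scale than the rest. SCR over UNT is the highest value and ZIP over SCR lies below 0 for all 9 genes, from -0.06 in HSPA9 to -2.08 in CTNNA1. In UNT, TIFAB and CTNNA1 had 3 and 7 counts, so their bars in comparisons with UNT understate counting error.

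Levels were set side by side per kilobase of annotated exon, which does not account for the isoform used. In SCR the order of mean CPM per kilobase was DIAPH1 (99.0), HSPA9 (54.2), PPP2CA (23.7), CSNK1A1 (22.2), KDM3B (17.7), NR3C1 (10.1), TIFAB (4.39), SMAD5 (3.33) and CTNNA1 (2.47). No neighbours in that order overlapped between the 2 SCR libraries. In ZIP the order changed at 2 places: CSNK1A1 (18.4) stood above PPP2CA (16.4), and SMAD5 (2.61) above TIFAB (1.27). In UNT the highest value was again that of DIAPH1, 53.6 CPM per kilobase, while CTNNA1 and TIFAB, at 0.0331 and 0.0211, were last.

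The members span 17.5 Mb of the chromosome, from 134194334 to 151687165, and this segment holds other genes that were compared with them. Without the members, 107 protein-coding genes of the segment were tested in ZIP over SCR, of which 66 (61.7%) fell and 10 (9.35%) rose, with a median log2 fold change of -0.34. Over all chromosomes 36.7% of 12135 protein-coding genes fell and 34.6% rose (median -0.01). In SCR over UNT 70 of 118 (59.3%) rose and 16 (13.6%) fell, with a median of 0.46, against 37.1% and 35.1% over all chromosomes. Nearly all members therefore lay on the side on which most of the segment lay.

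The genes next to the members on the chromosome did not always move with them. CTNNA1 lies between HSPA9, 35.2 kb away, and SIL1, 11.7 kb away, and SIL1 stood at 0.14 ± 0.07 in ZIP over SCR and 0.11 ± 0.09 in SCR over UNT, neither past the threshold (adjusted p = 0.089 and 0.32). The histone variant gene MACROH2A1, 44.3 kb from TIFAB, stood at 267 CPM in UNT, 447 and 445 in SCR, and 325 and 329 in ZIP, a change of 0.74 ± 0.03 in SCR over UNT beside the 7.65 ± 0.24 of TIFAB. The matrix protein gene TGFBI lies on the other side of TIFAB, 576 kb away, and 69.0 kb from SMAD5. TGFBI rose from 0.292 CPM in UNT to 15.01 and 13.3 in SCR, and it stood at 1.40 and 1.28 in ZIP. SMAD5 stood at 0.13 ± 0.07 on the log2 scale in SCR over UNT. The early response gene EGR1 beside KDM3B was likewise low in UNT (1.38 CPM), high in SCR (19.3 and 17.7) and between them in ZIP (5.26 and 5.13). PPARGC1B, the neighbour of CSNK1A1 and the host gene of MIR378A, rose in ZIP over SCR, by 0.44 ± 0.04 (adjusted p = 6.5e-09, edgeR).

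**Figure D3:**
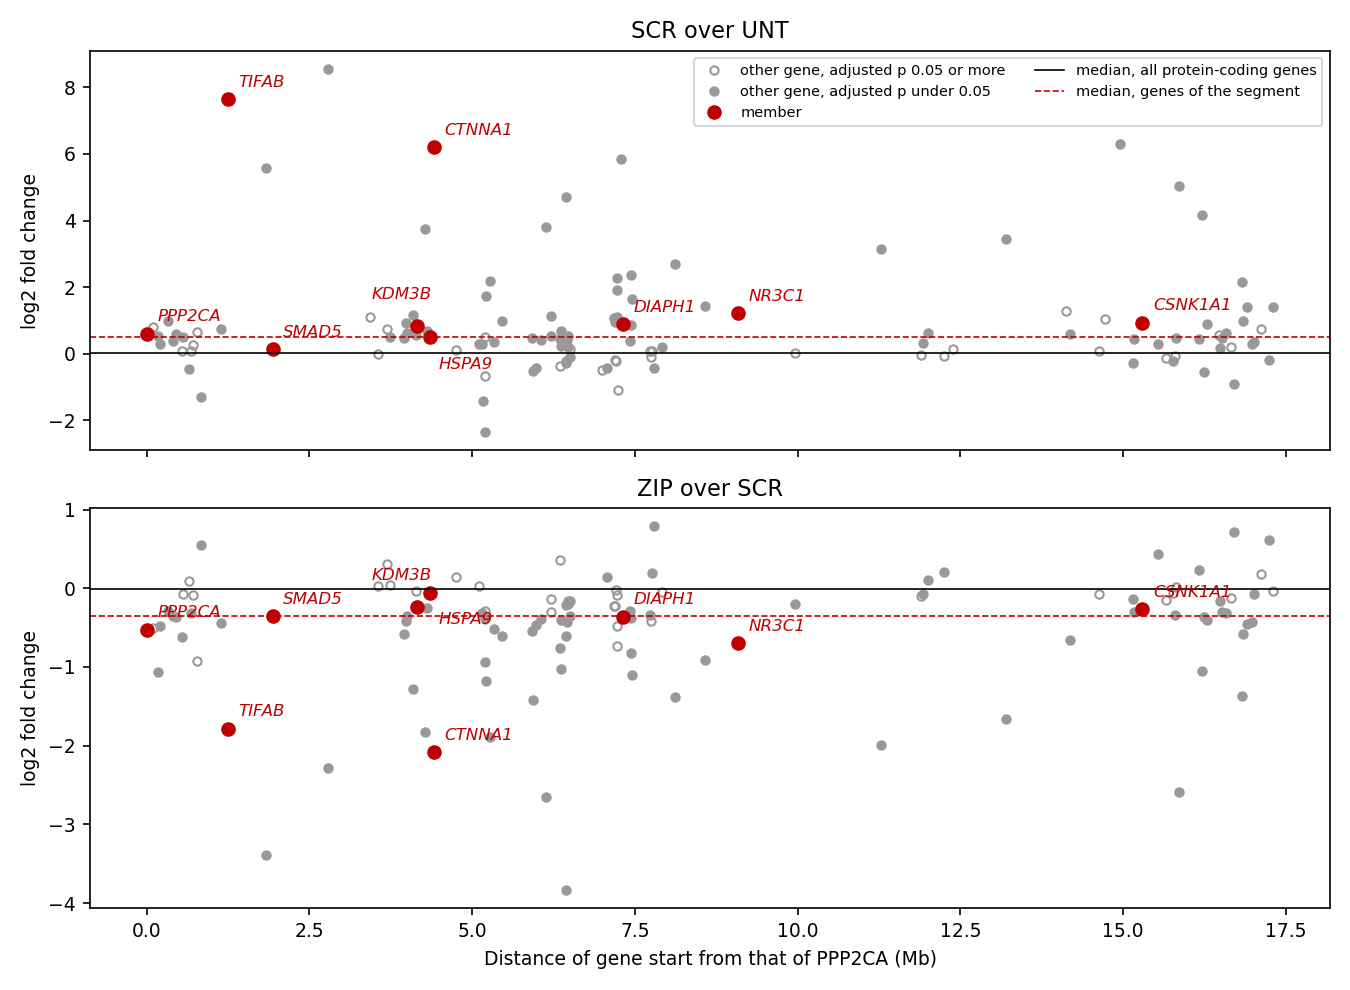
Log2 fold change of every tested protein-coding gene of the segment against the distance of its start from that of PPP2CA in Mb, for SCR over UNT (top) and ZIP over SCR (bottom). Members are red, grey points are the other genes (filled where adjusted p is under 0.05), the solid line is the median of all protein-coding genes and the dashed line that of the segment, at 0.49 in the top panel and -0.35 in the bottom one.

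The shift was not limited to the segment. Outside it, 416 tested genes of chromosome 5 had a median of -0.20 in ZIP over SCR, with 56.2% lower and 15.9% higher, and in SCR over UNT 435 had a median of 0.32. In bins of 20 Mb the medians of ZIP over SCR were -0.05 (41 genes) and -0.02 (29 genes) in the first 40 Mb, which lie on the short arm, and -0.20 to -0.33 in the 7 bins from 40 to 180 Mb, with 39 to 93 genes each. The last bin, with 9 genes, had -0.29. In SCR over UNT the first 2 bins were at 0.20 and 0.28 and the next 7 at 0.22 to 0.55. The step after 40 Mb was thus less clear there. ZIP over UNT had no rise after 40 Mb, with the first 2 bins at 0.17 and 0.37 and the next 7 at 0.02 to 0.27. By median, chromosome 5 was the lowest of 23 chromosomes in ZIP over SCR (-0.24), with chromosome 6 (-0.22) and chromosome 1 (-0.20) close to it. It was the highest in SCR over UNT (0.38) and in ZIP over UNT (0.16). These medians are descriptions with no test.

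**Figure D4:**
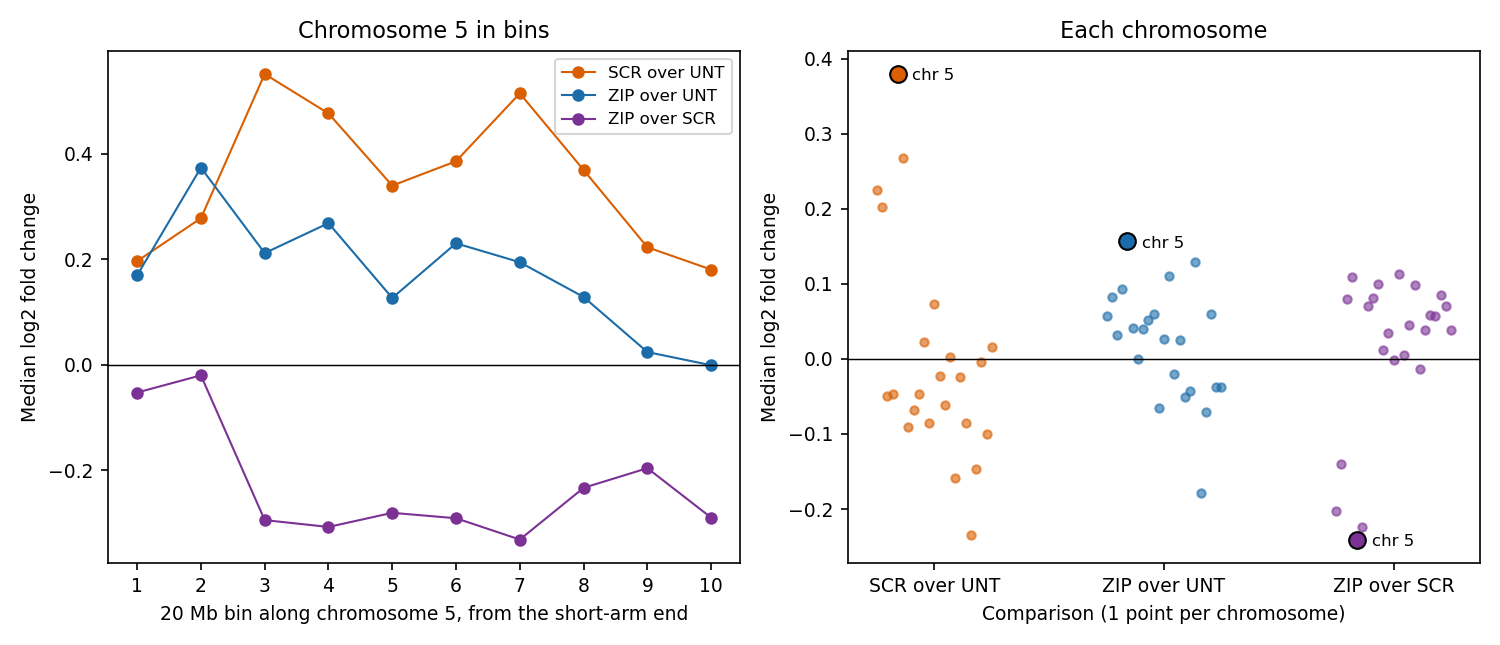
Left, median log2 fold change of tested protein-coding genes in 20 Mb bins along chromosome 5 for the 3 comparisons. Right, the median of each of 23 chromosomes, with chromosome 5 outlined: it is lowest in ZIP over SCR (-0.24) and highest in SCR over UNT (0.38).

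Other genes tied to the commonly deleted segment were taken from a list. Most of those tested lie between PPP2CA and SPARC and were counted among the segment genes above, so they are not a separate observation. IRF1 and G3BP1 of the list lie outside that stretch. Among all genes tested, 33.2% fell and 32.2% rose in ZIP over SCR, and the shares for SCR over UNT are given above. Of 16 tested from the 19 listed, 13 fell and 2 rose in ZIP over SCR (median -0.44), and 13 rose and 1 fell in SCR over UNT (median 0.46). The macrophage colony-stimulating factor receptor CSF1R, also a monocyte marker above, fell by 2.59 ± 0.07 on the log2 scale in ZIP over SCR. CD74, the MHC class II chaperone, fell by 1.05 ± 0.03 and the zinc finger gene CXXC5 by 0.60 ± 0.03. RPS14, the ribosomal protein whose loss impairs red cell maturation in 5q-deleted MDS, did not follow the members against UNT: it stood at 2273 CPM in UNT, 1537 and 1564 in SCR, and 1230 and 1177 in ZIP, lower in both vector groups (-0.55 ± 0.02 and -0.92 ± 0.02). RPS14 was named for its role and not by the naming rule, and its reads may be split with pseudogene copies. Of 5 genes of 5q outside the segment 2 rose and 3 fell in ZIP over SCR, with SQSTM1 at -0.52 ± 0.03, NSD1 at 0.23 ± 0.03 and NPM1 at -0.16 ± 0.03.

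The genes that work with each member were compared next, from lists of partners, with p-values adjusted over all genes tested. In ZIP over SCR 32.2% of all genes tested were called higher and 33.2% lower. The counts below are to be read beside these shares, and those against UNT beside the shares given above. Of 10 genes of TIFA and TRAF6 signalling, the pathway that TIFAB restrains, 2 rose and 5 fell in ZIP over SCR (median -0.20). The kinase IRAK1 rose by 0.73 ± 0.02, while the receptor adaptor MYD88 fell by 0.59 ± 0.04 and the TAK1 adaptor TAB2 by 0.36 ± 0.03. TIFA and TRAF6, added here as the direct partners, stood at -0.38 ± 0.07 and 0.57 ± 0.08.

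Of the catenin and adherens junction list 6 of 10 genes were tested, and 3 fell and 2 rose in ZIP over SCR (median -0.27). Afadin, AFDN, which joins nectins to actin, fell by 2.11 ± 0.09 and stood at 1.88 CPM in UNT, 21.4 and 22.05 in SCR, and 4.83 and 5.29 in ZIP, the same order of groups as CTNNA1. Plakoglobin, JUP, fell by 1.42 ± 0.03 and vinculin, VCL, which binds alpha-catenin under tension, by 0.56 ± 0.03. The cadherins CDH1 and CDH2 and the other alpha-catenins CTNNA2 and CTNNA3 were at 0.209 CPM or less in every library.

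Of 12 glucocorticoid receptor chaperones and target genes 6 rose and 5 fell in ZIP over SCR (median 0.14). The hormone-induced TSC22D3 fell by 3.28 ± 0.05: the SCR libraries had 111 and 109 CPM, the ZIP libraries 11.1 and 11.5 and UNT 19.4. The kinase SGK1, another known target, fell by 2.63 ± 0.09, while the chaperone HSP90AA1, which holds the receptor ready for hormone, rose by 0.68 ± 0.02. No steroid treatment is named in the labels.

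Of 13 BMP and SMAD genes 3 rose and 7 fell in ZIP over SCR (median -0.22). The receptors ACVR1 and BMPR1A fell by 3.30 ± 0.22 and 1.86 ± 0.15. The target gene ID3, counted among the 7, was low and passed the filter because of its level in SCR. A filter met in this way favours a fall from SCR, so no fold change is given for ID3. UNT had 0 CPM of ID3, the SCR libraries 1.85 and 1.48 CPM, and the ZIP libraries 0.131 and 0.248 CPM. SMAD5 itself moved far less than these receptors.

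PP2A subunits and regulators went in both directions, with 5 of 15 higher and 6 lower in ZIP over SCR (median 0.01): the regulatory subunit PPP2R5C fell by 0.43 ± 0.03, and the scaffold PPP2R1B and the regulatory subunit PPP2R2D rose by 0.43 ± 0.04 and 0.38 ± 0.03. Of the beta-catenin destruction and casein kinase 1 list 5 of 11 rose and 4 fell (median -0.01), with CSNK1G1 at 0.69 ± 0.04, AXIN1 at 0.59 ± 0.04 and CSNK1E at -0.53 ± 0.04.

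Mitochondrial chaperones and import factors, the partners of HSPA9, rose in 6 of 8 tested genes and fell in 1 in ZIP over SCR (median 0.25), with TRAP1 at 0.56 ± 0.03, the HSPA9 exchange factor GRPEL1 at 0.48 ± 0.03 and HSPD1 at 0.26 ± 0.02. HSPA9 stood at -0.06 beside them. In SCR over UNT 5 of these 8 genes fell and 1 rose (median -0.08), and in ZIP over UNT 5 rose and 2 fell (median 0.13), while HSPA9 rose in both. Of 9 formin and SRF genes 3 rose and 3 fell (median -0.04), with RHOA at -0.23 ± 0.02, DIAPH3 at -0.44 ± 0.06 and ACTB at 0.11 ± 0.01. Of 4 genes listed as KDM3 demethylases and partners 1 rose and 2 fell. KDM4A stood at -0.27 ± 0.03, KDM3A at -0.17 ± 0.03 and KDM1A at 0.13 ± 0.03. Of 9 genes of the SPARC family and its collagens 2 passed the filter on low counts, and both were low. SPOCK1 had 0 counts in UNT, 31 and 61 in SCR, and 12 and 8 in ZIP, and COL4A1 had 25, then 64 and 45, then 30 and 13. SPOCK1 reached the filter mainly through SCR, where it is high, so its lower level in ZIP is given as counts only.

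**Figure D5:**
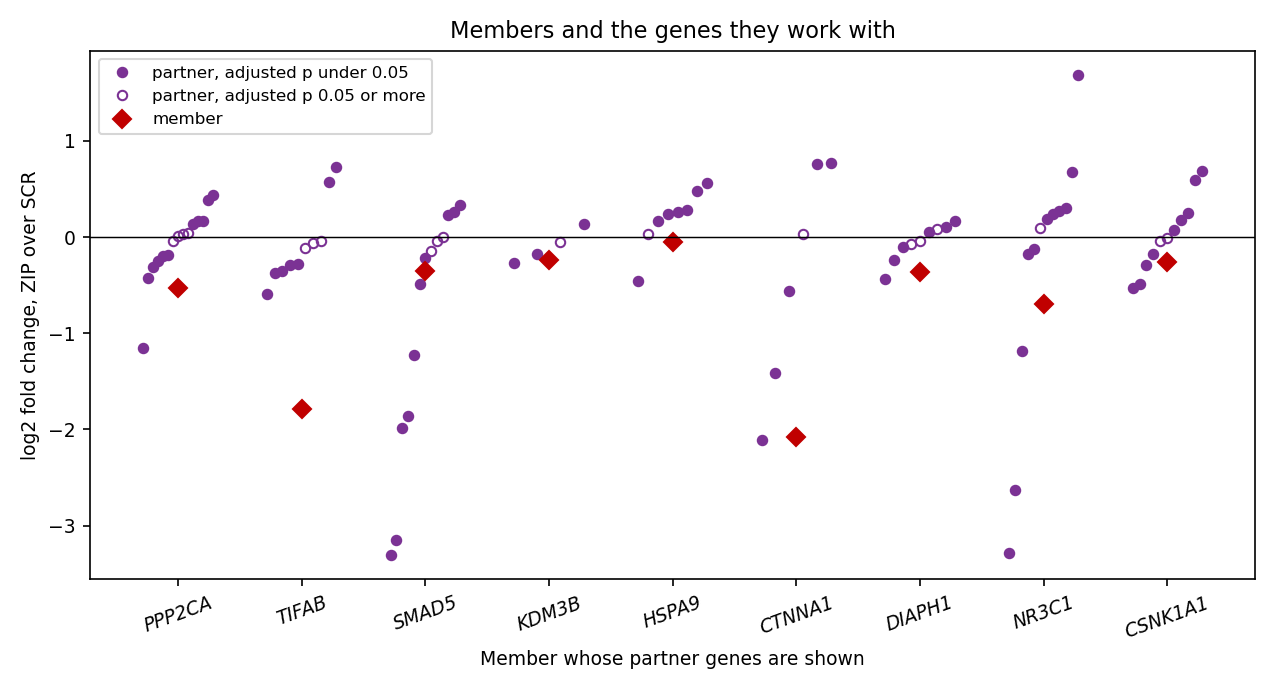
Log2 fold change in ZIP over SCR of each tested member (red diamond) beside its listed partner genes (circles, filled where adjusted p is under 0.05). TIFAB lies below all of its partners, while HSPA9, at -0.06, has 7 of 8 partners above it.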

How the data were processed

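The authors deposited raw counts per Ensembl gene. Bowtie2 and featureCounts appear in the submitters' processing notes, and per the labels (design text) TopHat 2, Cufflinks and HTSeq were used. These sources differ on the tools, and the build, annotation and strand setting were not given in the sources used here. For that reason genes that overlap are uncertain.

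Names and positions came from GENCODE 29 (GRCh38). Columns were matched to libraries by description label, and 0 columns were left over. Counts were filtered (filterByExpr, minimum count 10, minimum total 15), TMM-scaled and tested with edgeR 4.0.16 in R 4.3.3, checked on simulated data. ZIP against SCR used 4 libraries. Comparisons with UNT used 5, with the spread of the lone UNT library taken from SCR and ZIP. The residual degrees of freedom were 2 in each fit. SE is the log2 fold change over the root of F, which understates counting error for TIFAB and CTNNA1 against UNT. DESeq2 1.42.0 was an alternative.

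Members and lists were chosen with earlier results of these data known. All members were named, and of each list up to 3 genes of smallest p in ZIP against SCR. Candidates for similar profiles were typed as protein-coding in GENCODE 29, with a mean of at least 1 CPM.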

Additional observations from a re-analysis of the deposited data

How the results depend on the processing

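Over the alternatives run (library totals, DESeq2 size factors, the DESeq2 Wald test, no filter, each library left out, and for ZIP against SCR also a replicate block and a fit of all 5 libraries) 8 or 9 members were called in ZIP against SCR, 8 or 9 in SCR against UNT and 7 or 8 in ZIP against UNT, and no member changed direction. Leaving out 1 library at a time gave 8 members in the first 2 comparisons and 7 to 8 in the third. The calls that moved were those of HSPA9, SMAD5 and PPP2CA given in the report. Library totals moved the median of all genes in SCR against UNT to 0.13, with 6155 genes called higher and 4121 lower (5178 and 5094 with TMM), and SMAD5 then passed at 0.24 (adjusted p = 0.0044). In ZIP against SCR library totals gave 4028 genes higher and 5490 lower (4712 and 4859 with TMM). The DESeq2 Wald test called fewer genes in that comparison, 7644 against 9571 in the main fit, with 8 members called in both. It also called fewer genes in the comparisons with UNT. With the replicate number as a block, 9 members and 9709 genes were called in ZIP against SCR, the added member being HSPA9 (adjusted p = 0.045). Equal numbers did not deviate together (correlation 0.0075 over 14643 genes), so they were taken as names only. The untransduced library has no number, and a block could not be fitted for it. Between replicates the mean chi-square per gene was 2.65 in SCR and 1.88 in ZIP, where counting error alone gives 1. Depth limits SPARC and the UNT levels of TIFAB and CTNNA1.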
